A study of Homo sapiens with 16 samples.

Results

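NLRP4, a germline gene of the NLR family, and LRP1B, a giant receptor of the LDL receptor family, are 2 of the 22916 genes in the deposited table of scaled levels. They were chosen from these data because both were low in WT HCT116 cells and raised in cells with a shortened Rpn10 (truncation cells) under either siRNA. The difference between genotypes is therefore a description of the choice and carries no test here, and what could be tested is the effect of the siRNA within each genotype and its dependence on genotype. The words "near silent" fit LRP1B, which stayed under 1 CPM (a gene's counts relative to library size, scaled by TMM, a correction for library composition) in all 8 WT libraries, but not strictly NLRP4, which lay above 1 CPM in all 8.

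RNA was sequenced from HCT116, an established human colon cancer line, in 4 groups of 4 libraries. Truncation cells carry an edit that shortens Rpn10, a ubiquitin receptor of the proteasome encoded by PSMD4, so that its ubiquitin interacting motif region is missing. WT cells carry no such edit. Truncation knockdown and WT knockdown cells received 4 siRNAs in a mix directed at OTUD5, a deubiquitinase, and truncation scramble and WT scramble cells received a scrambled siRNA. Both were given at 50 nM for 48 hours, so all 16 libraries come from transfected cells. The labels do not say how many edited clones the truncation cells represent, so an effect of the edit cannot be told apart from a difference between clones.

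NLR proteins are cytosolic sensors and regulators built from an effector domain, an ATP-binding NACHT domain and leucine-rich repeats. NLRP4 carries a pyrin domain at its start, is known mainly from oocytes and testis, and has been reported in human cells to restrain type I interferon signalling by directing the ubiquitin ligase DTX4 to the kinase TBK1, and to bind the autophagy protein beclin 1. LRP1B is an endocytic receptor closely related to LRP1 that is most abundant in brain, and its very long gene is often deleted or silenced in tumours.

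NLRP4 (ENSG00000160505) lies on the plus strand of chromosome 19 at 55836578 to 55881854 in GRCh38, the build named hg38 in the submitters' processing notes. Its annotated start overlaps that of NLRP11 (ENSG00000179873, 55785397 to 55836800, minus strand), another gene of the same family, by 223 bp, and the pair points away from each other. LRP1B (ENSG00000168702) lies on the minus strand of chromosome 2 at 140231423 to 142131701. The LRP1B gene spans 1900.28 kb, of which 17.04 kb are exons, against 3.903 kb of exons in NLRP4.

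RefSeq's promoter table for GRCh38.p14 had an entry for 1 of the 2 genes, NLRP4. Its window and the overlapping window of NLRP11 are shown because both genes start in this stretch of DNA and the values of both are given further on. Each runs 5′ to 3′ on its own gene's strand, from 250 bases before the start to 50 after it, and capitals mark matches to the motifs searched. The starts used are those of the promoter table, which differ from the annotated gene starts given above. The NLRP4 window is chr19:55836290-55836589 on the plus strand and the NLRP11 window is chr19:55836526-55836825 on the minus strand.
NLRP4: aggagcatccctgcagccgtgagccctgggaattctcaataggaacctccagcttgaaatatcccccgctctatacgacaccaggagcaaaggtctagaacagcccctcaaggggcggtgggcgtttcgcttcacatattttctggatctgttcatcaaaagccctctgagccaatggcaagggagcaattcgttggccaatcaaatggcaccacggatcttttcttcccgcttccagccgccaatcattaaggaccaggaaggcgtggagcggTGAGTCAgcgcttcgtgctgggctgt
NLRP11: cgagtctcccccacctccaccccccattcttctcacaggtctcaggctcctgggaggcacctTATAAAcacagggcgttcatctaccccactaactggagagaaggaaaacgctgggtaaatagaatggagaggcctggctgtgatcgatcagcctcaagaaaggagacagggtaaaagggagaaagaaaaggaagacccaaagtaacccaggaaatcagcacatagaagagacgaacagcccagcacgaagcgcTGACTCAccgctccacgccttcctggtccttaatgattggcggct
The windows share 64 bases, and the AP-1 match TGAGTCA at bases 275 to 281 of the NLRP4 window is the same stretch of DNA, 55836564 to 55836570, as TGACTCA at bases 256 to 262 of the NLRP11 window. That match lies 24 bases after the NLRP4 start of the promoter table but before the annotated gene start at 55836578. The motif searched was TGANTCA, the site bound by AP-1 factors, and 7.71% of the 35116 promoters in the table hold a match on either strand. The NLRP11 window also holds TATAAA at bases 63 to 68, a match found in 11.5% of promoters. Neither window held TGACNNNGC, the antioxidant response element found in 13.3% of promoters, or the E-box CACGTG found in 7.26%. The NLRP4 window has 14 CG dinucleotides, which equals the median of all promoters, and the NLRP11 window has 10. A match is a description of letters and shows no binding.

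The libraries were alike in depth, with 28777244 to 29645663 counts each. OTUD5 averaged 20.7 ± 1.49 CPM in truncation knockdown against 94.9 ± 2.27 in truncation scramble, and 20.0 ± 2.05 in WT knockdown against 88.5 ± 3.18 in WT scramble (SD, n = 4 each). The 4 truncation knockdown libraries, whose titles say scramble, were thus low in OTUD5 as their descriptions and treatment labels say. PSMD4 counts over the whole gene do not show the missing part and do not check the genotype. Of 10 colon epithelial markers, 7 averaged at least 1 CPM in each group, while LGALS4, VIL1 and CDH17 were near 0. The number of genes with any count was 32264 in WT knockdown replicate 3 and 25626 to 27765 elsewhere. WT scramble replicate 4 stood apart in immune transcripts, with a summed level of 15.7 CPM over 6 immune markers against 0.308 to 3.05 CPM in the other 15 libraries. For NLRP4 and LRP1B, log2 fold changes that rest on either library are given with and without it. Values of other genes are given only with all 16 libraries.

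NLRP4 had the higher level, also per kilobase of exon, in every library. It stood at 67.1, 71.7, 70.4 and 62.8 CPM in truncation knockdown, at 65.3, 67.2, 68.3 and 63.7 CPM in truncation scramble, at 2.64, 2.17, 1.97 and 2.47 CPM in WT knockdown, and at 1.29, 1.29, 1.46 and 2.32 CPM in WT scramble. All 8 truncation libraries lay above all 8 WT libraries, with nothing in between. In WT scramble, 3 libraries lay close together and replicate 4 was higher, inside the range of WT knockdown. The means were 68.0 ± 3.95 CPM in truncation knockdown (8200 counts in all), 66.1 ± 2.05 in truncation scramble (7677), 2.31 ± 0.300 in WT knockdown (270) and 1.59 ± 0.495 in WT scramble (181), with SD and n = 4 each. From highest to lowest, the neighbouring groups truncation knockdown and truncation scramble overlapped, and so did WT knockdown and WT scramble.

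LRP1B showed the same separation at lower levels. It stood at 5.98, 8.63, 7.27 and 8.10 CPM in truncation knockdown, at 7.74, 8.08, 8.35 and 5.99 CPM in truncation scramble, at 0.651, 0.839, 0.427 and 0.557 CPM in WT knockdown, and at 0.627, 0.558, 0.520 and 0.322 CPM in WT scramble. Again all 8 truncation libraries lay above all 8 WT libraries, and the 2 siRNA groups of each genotype overlapped. The means were 7.50 ± 1.15 CPM in truncation knockdown, 7.54 ± 1.07 in truncation scramble, 0.619 ± 0.173 in WT knockdown and 0.507 ± 0.131 in WT scramble (SD, n = 4 each). The WT values are thinly counted, with 72 counts over the 4 WT knockdown libraries and 58 over the 4 WT scramble libraries, or 9 to 24 per library, so that small differences within WT were not detectable at this depth. In such bulk samples, more cells with the transcript and more transcript per cell cannot be told apart.

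**Figure D1:**
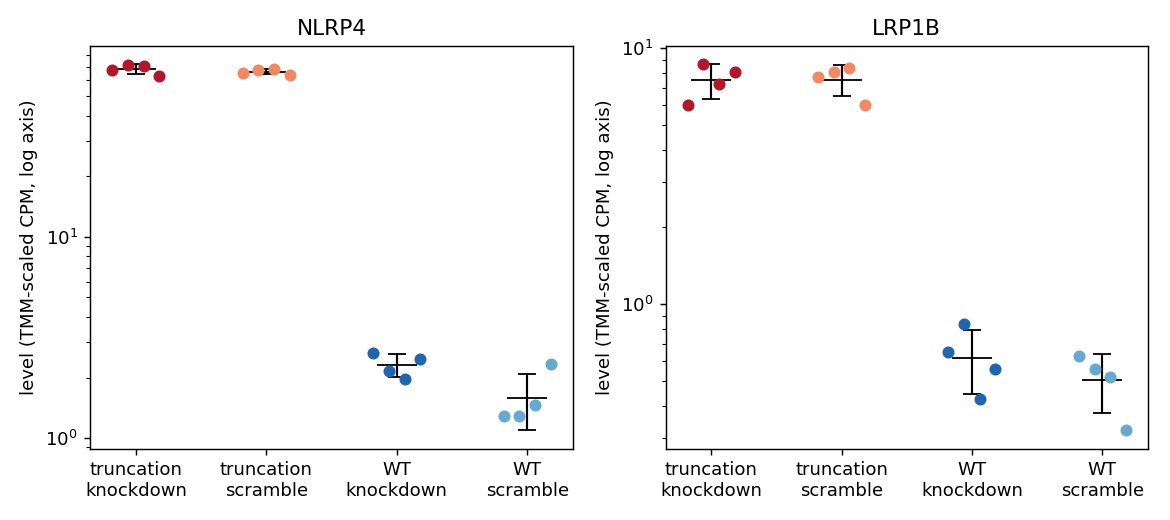
Level of NLRP4 (left) and LRP1B (right) in each library, in TMM-scaled CPM on log axes with different ranges; points are libraries and bars are the mean and SD of 4. The 8 truncation libraries lie at 62.8 CPM or above for NLRP4 and at 5.98 CPM or above for LRP1B, over every WT library.

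In knockdown cells, NLRP4 was 29.6-fold higher in truncation than in WT cells (log2 fold change 4.89 ± 0.10, SE), and LRP1B was 12.2-fold higher (3.61 ± 0.18). In scramble cells the differences were 41.2-fold (5.36 ± 0.11) and 14.6-fold (3.87 ± 0.19). Ordered from the most raised to the most lowered in truncation cells, NLRP4 ranked 2nd of 17104 tested genes in knockdown cells and 6th in scramble cells, and LRP1B 10th and 14th. Between genotypes, 45.5% of tested genes were called in knockdown cells and 44.0% in scramble cells, at a Benjamini-Hochberg adjusted p under 0.05 by edgeR's quasi-likelihood test. Of all tested genes, 5.99% had all 8 truncation libraries above all 8 WT libraries. Without WT scramble replicate 4 the difference for NLRP4 in scramble cells was 5.60 and that for LRP1B 3.71. Without WT knockdown replicate 3 the difference in knockdown cells was 4.82 for NLRP4 and 3.46 for LRP1B.

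The rule of being low in WT and far higher in truncation cells was met by few genes. A mean under 1 CPM in both WT groups and a log2 fold change of at least 3 under both siRNAs held for 10 of 17104 genes (0.0585%), which include LRP1B but not NLRP4. With a ceiling of 3 CPM, chosen after the values were seen, 12 genes met it, NLRP4 and SPP1 being the additions. SPP1, which encodes the secreted matrix protein osteopontin, averaged 35.9 ± 3.08 CPM in truncation knockdown, 37.3 ± 1.23 in truncation scramble, 2.34 ± 0.354 in WT knockdown and 1.12 ± 0.273 in WT scramble. EGF, the epidermal growth factor, averaged 9.82 ± 0.962 CPM in truncation knockdown, 8.72 ± 1.19 in truncation scramble, 0.933 ± 0.337 in WT knockdown and 0.447 ± 0.0388 in WT scramble (SD, n = 4 each). Levels in truncation cells thus placed NLRP4 at the top of the 12 genes, followed by SPP1, EGF and LRP1B.

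The other 8 genes averaged between 0.825 and 4.64 CPM over the truncation libraries. They were the interferon-induced gene IFI44, CFAP47, the chemokine gene CCL26, the pseudogenes NMRAL2P and FDPSP1, the tetraspanin gene TSPAN8, the taste receptor gene TAS1R1 and the Wnt inhibitor gene DKK4. Knockdown in truncation cells changed 5 of these 8 past the threshold, in a comparison that called 56.7% of all tested genes. IFI44 averaged 2.65 ± 0.767 CPM in truncation knockdown against 6.62 ± 0.339 CPM in truncation scramble (log2 fold change -1.29 ± 0.29, adjusted p 0.000507 by edgeR), and CCL26 averaged 1.72 ± 0.418 against 3.43 ± 0.385 CPM (-0.96 ± 0.20, adjusted p 0.000190 by edgeR). FDPSP1 (-0.74 ± 0.25) and DKK4 (-1.01 ± 0.33) were also called lower, and TAS1R1 (0.95 ± 0.27) was called higher.

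**Figure D2:**
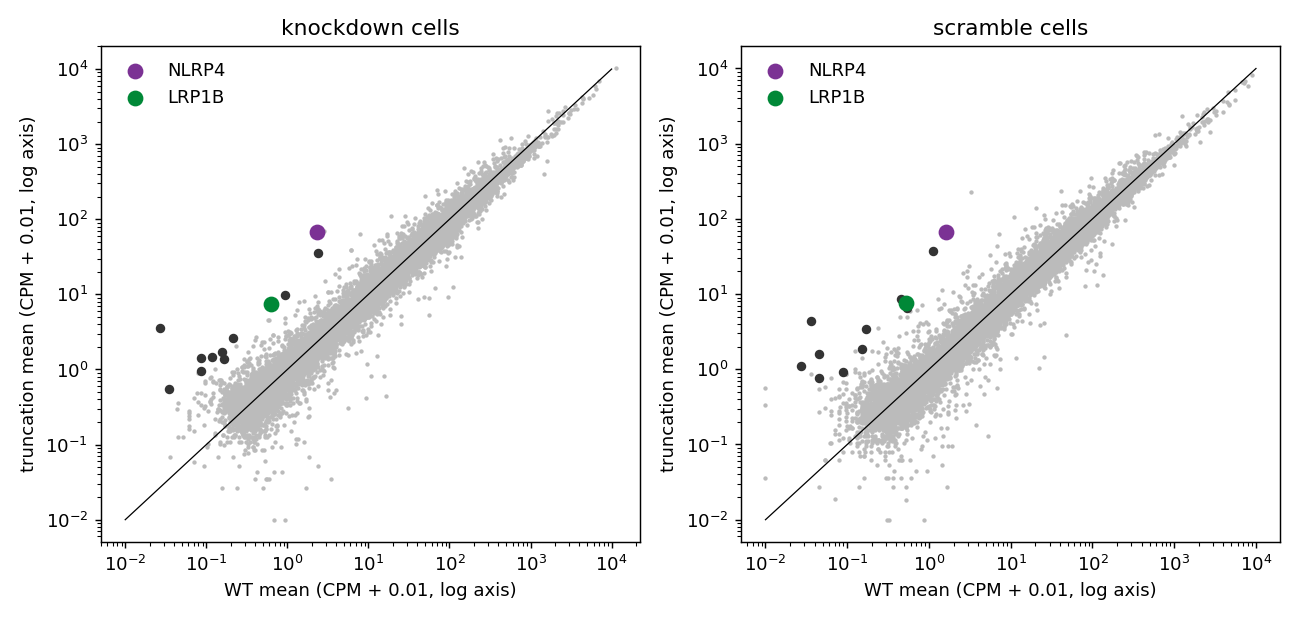
Mean level of each tested gene in truncation cells against WT cells, in CPM + 0.01 on log axes, for knockdown cells (left) and scramble cells (right); the line marks equal levels and black points are the other genes of the set of 12. NLRP4 and LRP1B lie far above the line in both panels, at 68.0 against 2.31 CPM and 7.50 against 0.619 CPM in knockdown cells.

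In truncation cells no effect of OTUD5 knockdown was called for either gene. The log2 fold change of knockdown against scramble there was 0.07 ± 0.07 for NLRP4 (SE; 95% interval -0.08 to 0.23, adjusted p 0.410 by edgeR's quasi-likelihood test over all genes). For LRP1B it was 0.02 ± 0.13 (-0.25 to 0.29, adjusted p 0.887 by the same edgeR test). The comparison called 56.7% of tested genes. The intervals leave room for an NLRP4 level between 0.947 and 1.17 times, and an LRP1B level between 0.844 and 1.23 times, that of truncation scramble cells.

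In WT cells NLRP4 rose with knockdown. Its log2 fold change was 0.55 ± 0.15 (95% interval 0.23 to 0.87, adjusted p 0.00422 by edgeR), or 1.46-fold with an interval of 1.18 to 1.82. The change is small beside the difference between genotypes, the comparison called 50.3% of tested genes, and 25.2% were called higher. The 4 WT knockdown libraries did not all exceed the 4 WT scramble libraries, a separation that 19.5% of tested genes showed upward. NLRP4 was called in all 16 fits that left out 1 library, with log2 fold changes of 0.46 to 0.79. Without WT scramble replicate 4 it was 0.79 and without WT knockdown replicate 3 it was 0.61.

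LRP1B was not called in WT cells, with a log2 fold change of 0.29 ± 0.28 (95% interval -0.29 to 0.86, adjusted p 0.416 by edgeR). That interval includes the value found for NLRP4, so the data do not separate the 2 genes in this respect. Without WT scramble replicate 4 it was 0.13 and without WT knockdown replicate 3 it was 0.42.

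Whether the siRNA acted differently in the 2 genotypes was tested as an interaction, in which the effect in WT cells is subtracted from the effect in truncation cells. For NLRP4 it was -0.48 ± 0.17 (95% interval -0.83 to -0.13, adjusted p 0.0999 by edgeR), which was not called in a comparison that called 5.69% of tested genes, 3.65% in the lower direction. It was called with DESeq2 (-0.49, adjusted p 0.0352) and by edgeR without WT scramble replicate 4 (-0.72, adjusted p 0.00592), so the call for NLRP4 rests on the tool and on that library. Without WT knockdown replicate 3 the NLRP4 interaction was -0.56. For LRP1B the interaction was -0.26 ± 0.31 (-0.90 to 0.37, adjusted p 0.699 by edgeR). It was -0.10 without WT scramble replicate 4 and -0.42 without WT knockdown replicate 3, and ran from -0.42 to -0.09 over the fits that left out 1 library, the end nearest 0 being without WT knockdown replicate 2, and none of them called it.

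**Figure D3:**
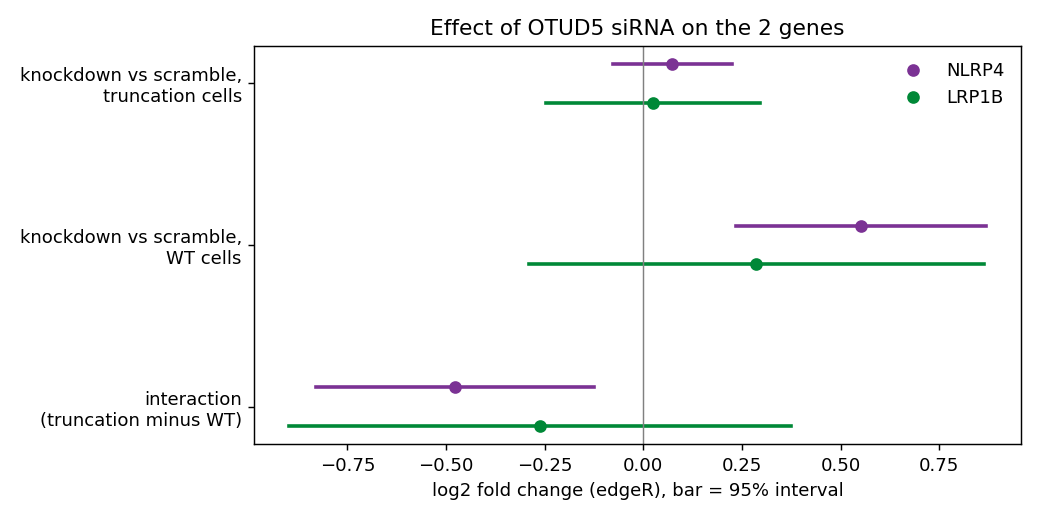
Log2 fold change of knockdown against scramble in truncation cells and in WT cells, and the interaction (the first minus the second), for NLRP4 and LRP1B; points are edgeR estimates and bars 95% intervals. The bar for NLRP4 in WT cells runs from 0.23 to 0.87, and both bars in truncation cells cross 0.

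The high NLRP4 value of WT scramble replicate 4 came with other transcripts. NLRP4 had 65 counts there, and PTPRC, the pan-leukocyte gene CD45, had 326 counts against 1 to 25 in the other 15 libraries. The inflammasome genes CASP1 (40 counts against 0 to 6), CARD16 (20 against 0 to 2), IL1B (18 against 0 to 4) and AIM2 (15 against 0 to 1) were also highest there. Across the 6 immune markers the summed level ran from 0.522 to 1.05 CPM in truncation knockdown, 1.05 to 2.46 in truncation scramble, 0.308 to 3.05 in WT knockdown and 0.486 to 15.7 in WT scramble. None of the 6 averaged 1 CPM in the truncation groups. The part of these transcripts in the NLRP4 value of WT scramble replicate 4 was not tested.

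NLRP4 and LRP1B did not keep a fixed proportion. Per kilobase of exon, NLRP4 stood at 33.9 to 49.0 times the level of LRP1B in truncation knockdown libraries (median 39.2) and 35.7 to 46.4 times in truncation scramble (median 36.6). In WT libraries the ratio was lower, 11.3 to 20.2 in WT knockdown (median 18.5) and 8.97 to 31.5 in WT scramble (median 11.2). The WT scramble ratio of 31.5 was that of replicate 4, and the other libraries of that group lay between 8.97 and 12.2. The ratios of the truncation libraries all exceeded those of the WT libraries, whose LRP1B values rest on few counts. These ratios restate the genotype differences on which the genes were chosen, and carry no test.

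Within the NLR family, NLRP4 was at the top per kilobase of exon in truncation cells and in the middle of that order in WT cells. Per kilobase of exon it averaged 17.4 CPM in truncation knockdown and 16.9 in truncation scramble, first of the 20 family genes in the table, and 0.592 in WT knockdown and 0.407 in WT scramble, where it ranked 6th and 7th. It made up 37.8% of the family's summed level in truncation knockdown, 39.1% in truncation scramble, 2.07% in WT knockdown and 1.58% in WT scramble. NLRP2, a relative known from oocytes and early embryos, led in WT cells with 15.1 and 14.9 CPM per kilobase in WT knockdown and WT scramble. In truncation knockdown and truncation scramble NLRP2 stood at 14.4 and 15.8 CPM per kilobase, below NLRP4. Not divided by exon length, NLRP2 was above NLRP4 in these groups, at 90.7 ± 4.94 and 100 ± 1.77 CPM (SD, n = 4 each) against 68.0 and 66.1 CPM.

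The other NLR genes were called in both directions between genotypes. Of the 13 tested besides NLRP4, truncation cells had 2 called higher and 1 lower in knockdown cells, with a median log2 fold change of 0.01 against -0.0026 over all genes. In scramble cells 1 was higher and 5 lower, with a median of -0.28 against -0.02 over all genes. Called lower in scramble cells were NAIP (-1.36 ± 0.35), which has near-identical gene copies and is uncertain, NLRP14 (-1.05 ± 0.38), CIITA, the activator of MHC class II genes (-0.76 ± 0.27), NLRC5, the activator of MHC class I genes (-0.50 ± 0.10) and the bacterial sensor gene NOD1 (-0.32 ± 0.09). NLRC5 was also lower in knockdown cells (-0.46 ± 0.10). NLRX1, whose product resides in mitochondria, was higher by 0.27 ± 0.07 in knockdown cells and 0.20 ± 0.07 in scramble cells, and NLRC4 by 1.02 ± 0.38 in knockdown cells. Those calls are edgeR's at adjusted p under 0.05, and the 21.9% and 21.6% of all genes called higher, and 23.6% and 22.4% called lower, in knockdown and scramble cells are their background.

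Knockdown changed other NLR genes in both genotypes. In truncation cells 4 of the 13 rose and 3 fell, against 28.7% and 28.1% of all genes, with NLRP14 at 1.43 ± 0.37, NAIP at 1.36 ± 0.35, NLRP1 at -1.01 ± 0.14 and NLRP11 at -0.73 ± 0.25. In WT cells 2 rose and 4 fell, against 25.2% and 25.1% of all genes. NLRC4 fell by 1.07 ± 0.38 and NLRP1 by 0.68 ± 0.14, while NLRC3 rose by 0.78 ± 0.22 and NLRX1 by 0.66 ± 0.07 on the log2 scale. The WT scramble libraries were uneven for NLRC4 (0.970 ± 0.599 CPM) and NAIP (0.731 ± 0.419 CPM, SD, n = 4 each). Calls for these genes against that group thus rest on a wide spread.

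LRP1B stayed a minor member of the LDL receptor family. Per kilobase of exon it averaged 0.440 CPM in truncation knockdown and 0.442 in truncation scramble, 12th of 18 family genes, and 0.0363 in WT knockdown and 0.0297 in WT scramble, 15th of 18. LRP1, the closest relative, was not called between genotypes, with log2 fold changes of -0.08 ± 0.11 in knockdown cells and -0.09 ± 0.12 in scramble cells.

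Of the 14 family members tested besides LRP1B, 2 were called higher and 4 lower in truncation than in WT cells after knockdown, and 2 higher and 2 lower in scramble cells. The shares over all genes were 21.9% higher and 23.6% lower after knockdown, and 21.6% higher and 22.4% lower in scramble cells. Their median log2 fold changes were -0.08 and 0.02, against -0.0026 and -0.02 over all genes. LDLRAD1 was higher by 1.67 ± 0.40 in knockdown and 2.06 ± 0.43 in scramble cells, at levels under 1 CPM. SORL1, a sorting receptor, was lower (-0.63 ± 0.10 in knockdown and -0.64 ± 0.10 in scramble cells). LRP10 was higher by 0.15 ± 0.06 in knockdown and 0.33 ± 0.06 in scramble cells, while the Wnt co-receptor gene LRP5 (-0.22 ± 0.08) and LDLRAD3 (-0.19 ± 0.06) were called lower in knockdown cells.

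**Figure D4:**
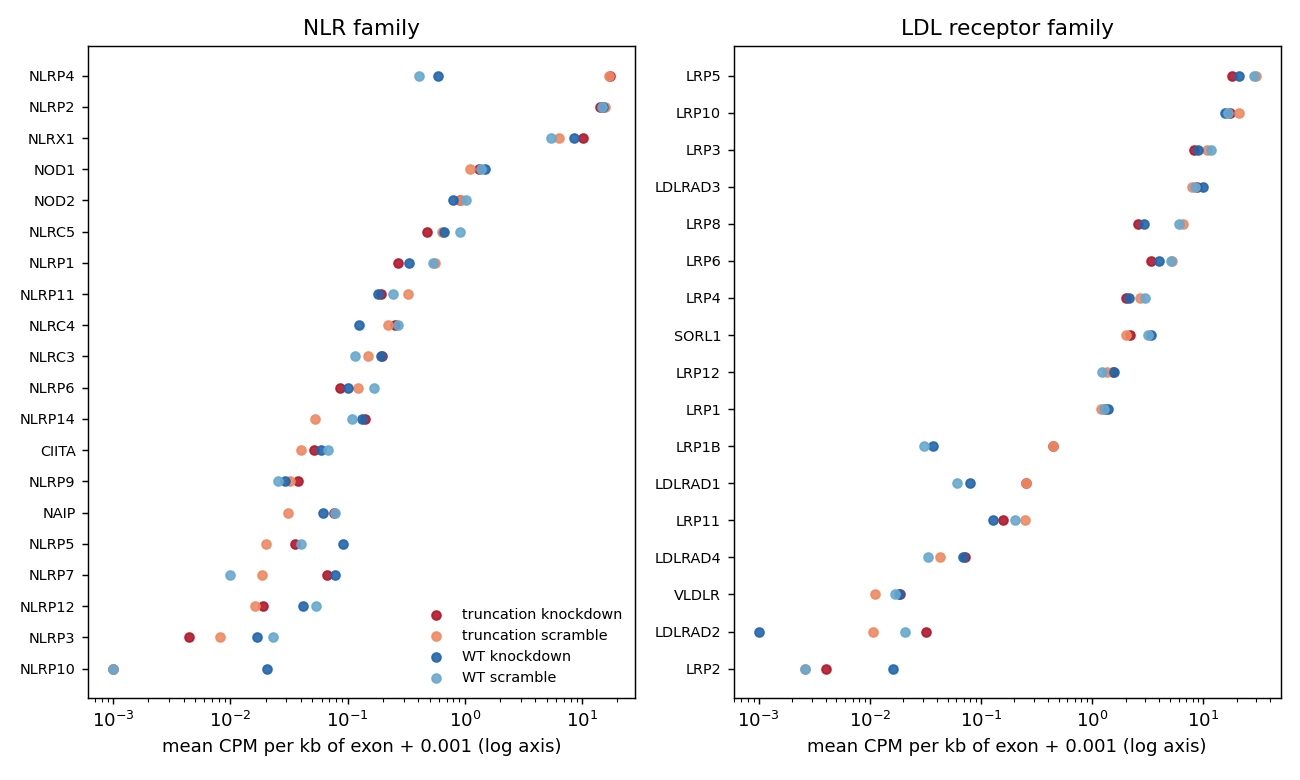
Mean level of each gene of the NLR family (left, 20 genes) and the LDL receptor family (right, those reported here) in the 4 groups, in CPM per kilobase of exon + 0.001 on log axes, with genes ordered by level. NLRP4 leads its family at 17.4 and 16.9 CPM per kilobase in truncation groups and falls among low genes at 0.592 and 0.407 in WT groups, and LRP1B ranks 12th and 15th of 18.

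After knockdown 3 of these 14 LDL receptor family genes rose and 8 fell in truncation cells, with a median of -0.28 against 0.02 over all genes, and 4 rose and 6 fell in WT cells, with a median of 0.03 against 0.01. Over all genes, 28.7% rose and 28.1% fell in truncation cells, and 25.2% rose and 25.1% fell in WT cells. LRP8, a receptor for reelin and apolipoprotein E, fell by 1.30 ± 0.09 in truncation cells and 1.04 ± 0.08 in WT cells on the log2 scale, and LDLRAD4 rose by 0.80 ± 0.25 and 1.07 ± 0.27. LRP1B, at 0.02 in truncation cells and 0.29 in WT cells, was among the members not called.

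Genes that handle LDL receptor family proteins moved both ways between genotypes. Of 15 chaperone, adaptor and protease genes tested, 3 were higher and 6 lower in truncation than in WT cells after knockdown, and 6 higher and 3 lower in scramble cells, where all tested genes gave 21.9% and 23.6% after knockdown and 21.6% and 22.4% in scramble cells. Their median log2 fold changes were -0.0049 in knockdown cells and 0.04 in scramble cells, against -0.0026 and -0.02 over all genes. The protease gene FURIN was lower (-0.67 ± 0.07 in knockdown and -0.47 ± 0.06 in scramble cells). The endocytic adaptor gene DAB2 was higher by 0.73 ± 0.09 in knockdown and 0.53 ± 0.09 in scramble cells, and PSENEN, a subunit gene of the receptor-cleaving protease γ-secretase, by 0.47 ± 0.16 in knockdown and 0.49 ± 0.17 in scramble cells. The gene of another such subunit, NCSTN, was lower in knockdown cells (-0.51 ± 0.06). LRPAP1 and MESD, the chaperone genes for these receptors, were not called between genotypes.

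Among 10 tested genes for reported ligands of LRP1B or LRP1 and their partners, 1 was higher and 5 lower in truncation cells after knockdown, and 1 higher and 3 lower in scramble cells. Of all tested genes 21.9% were higher and 23.6% lower after knockdown, and 21.6% higher and 22.4% lower in scramble cells. The medians of the 10 were -0.18 in knockdown cells and -0.02 in scramble cells, against -0.0026 and -0.02 over all genes. PLAT, tissue plasminogen activator, was the one higher, by 0.34 ± 0.08 in knockdown and 0.65 ± 0.08 in scramble cells. PLAU, urokinase, was lower (-0.47 ± 0.07 in knockdown and -0.43 ± 0.06 in scramble cells). Its receptor gene PLAUR was lower (-0.17 ± 0.07 in knockdown and -0.38 ± 0.07 in scramble cells), as was the protease inhibitor gene SERPINE2 (-0.17 ± 0.05 in knockdown and -0.18 ± 0.05 in scramble cells). In knockdown cells APP, the amyloid precursor gene (-0.18 ± 0.05), was lower too.

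On the NLRP4 side, 11 genes of its reported partners and pathway were tested, and 5 were higher and 2 lower in truncation than in WT cells under either siRNA. The background of all tested genes was 21.9% higher and 23.6% lower in knockdown cells, and 21.6% higher and 22.4% lower in scramble cells. The median log2 fold changes of the 11 were 0.05 in knockdown cells and 0.06 in scramble cells, against -0.0026 and -0.02 over all genes. The RNA sensor genes IFIH1 (1.08 ± 0.10 in knockdown and 1.12 ± 0.10 in scramble cells) and RIGI (0.63 ± 0.08 in knockdown and 1.05 ± 0.08 in scramble cells) were higher, with the kinase genes IKBKE (0.78 ± 0.09 in knockdown and 0.94 ± 0.09 in scramble cells) and TBK1 (0.48 ± 0.06 in knockdown and 0.58 ± 0.06 in scramble cells). TRAF3, an adaptor gene, was higher by 0.18 ± 0.05 in knockdown and 0.21 ± 0.05 in scramble cells. STING1, the adaptor gene of the cytosolic DNA pathway, was lower (-0.58 ± 0.11 in knockdown and -0.45 ± 0.10 in scramble cells), as was DTX4, the reported ligase partner of NLRP4 (-0.30 ± 0.10 in knockdown and -0.42 ± 0.10 in scramble cells). BECN1, the gene of beclin 1, was not called, at 0.05 ± 0.06 in knockdown and 0.02 ± 0.06 in scramble cells.

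Inflammasome genes were mostly too low to test, with 6 of 13 tested. Of those, 3 were higher and 2 lower in truncation than in WT cells after knockdown and 3 were higher in scramble cells, with medians of 0.48 in knockdown cells and 0.25 in scramble cells against -0.0026 and -0.02 over all genes. Among all tested genes 21.9% were higher and 23.6% lower in knockdown cells, and 21.6% higher and 22.4% lower in scramble cells. CASP4, an inflammatory caspase gene, was higher in truncation than in WT cells by 1.45 ± 0.07 after knockdown and 1.53 ± 0.07 in scramble cells. CARD8, a sensor gene, was higher by 0.55 ± 0.07 in knockdown and 0.85 ± 0.07 in scramble cells, and the cytokine gene IL18 by 0.50 ± 0.06 in knockdown and 0.63 ± 0.07 in scramble cells. In knockdown cells PYDC1, an inhibitor gene of the pathway (-1.11 ± 0.42), and the pore-forming gasdermin gene GSDMD (-0.25 ± 0.10) were lower. The adaptor gene PYCARD averaged 0.0996, 0.0781, 0.0599 and 0.168 CPM and CASP1 0.0331, 0.0609, 0.0493 and 0.357 CPM in truncation knockdown, truncation scramble, WT knockdown and WT scramble, and neither was tested.

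Most other germline genes were too low to test. Of 16 oocyte and maternal complex genes, 7 were in the table and 2 were tested, TLE6 and ZP3, and edgeR called neither between genotypes. TLE6, of the maternal complex, had log2 fold changes of -0.15 ± 0.18 in knockdown and -0.03 ± 0.16 in scramble cells, and ZP3, of the egg coat, 0.12 ± 0.15 in knockdown and -0.15 ± 0.14 in scramble cells. Their unadjusted p-values lay between 0.304 and 0.839. Of 48 germline and cancer-testis genes, 22 were in the table and 13 were tested, with 2 called higher and 1 lower under either siRNA. That compares with 21.9% higher and 23.6% lower of all genes in knockdown cells, and 21.6% higher and 22.4% lower in scramble cells. Their median log2 fold changes were 0.10 in knockdown cells and -0.04 in scramble cells, against -0.0026 and -0.02 over all genes. SSX1, a cancer-testis gene with near-identical relatives and so uncertain, was higher by 2.64 ± 0.26 in knockdown and 2.33 ± 0.34 in scramble cells. It averaged 2.46, 0.906, 0.394 and 0.175 CPM in truncation knockdown, truncation scramble, WT knockdown and WT scramble, so it was raised by knockdown in truncation cells (1.48 ± 0.23), where NLRP4 was not called. Of the 13 genes, 7 were called higher and 1 lower with knockdown in truncation cells, against 28.7% and 28.1% of all genes. In truncation against WT cells, STAG3, a meiotic cohesin gene, was higher after knockdown (1.02 ± 0.21) and MAGEB2 with scramble (0.18 ± 0.06). PRAME was lower in truncation than in WT cells (-0.20 ± 0.06 in knockdown and -0.15 ± 0.06 in scramble cells). Of 6 germ cell markers, ZP3 alone averaged 1 CPM or more in any group.

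Enzymes and repressors that keep germline genes silent in somatic cells were listed together with the methylcytosine oxidase genes TET1, TET2 and TET3. This list also moved in both directions, and its counts are not of silencing genes alone. All 19 were tested, and 6 were higher and 7 lower in truncation than in WT cells after knockdown, and 5 higher and 7 lower in scramble cells. The corresponding shares of all genes were 21.9% higher and 23.6% lower after knockdown, and 21.6% higher and 22.4% lower in scramble cells. The medians of the 19 were -0.03 in knockdown cells and -0.08 in scramble cells, against -0.0026 and -0.02 over all genes. The repressor gene E2F6 was higher by 0.76 ± 0.06 in knockdown and 0.74 ± 0.06 in scramble cells, L3MBTL2 by 0.47 ± 0.07 in knockdown and 0.56 ± 0.07 in scramble cells, and TET2, a methylcytosine oxidase gene, by 0.45 ± 0.10 in knockdown and 0.57 ± 0.10 in scramble cells. The maintenance methyltransferase gene DNMT1 was lower (-0.83 ± 0.06 in knockdown and -0.32 ± 0.06 in scramble cells), as was its partner gene UHRF1 (-0.82 ± 0.06 in knockdown and -0.31 ± 0.06 in scramble cells). The histone methyltransferase gene EHMT2 was lower (-0.76 ± 0.07 in knockdown and -0.27 ± 0.07 in scramble cells), as was TET3 (-0.54 ± 0.10 in knockdown and -0.40 ± 0.10 in scramble cells).

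DNMT1 fell further with the siRNA, by 1.53 ± 0.06 in truncation cells and 1.01 ± 0.06 in WT cells on the log2 scale, with an interaction of -0.51 ± 0.08 (adjusted p 0.000302 by edgeR). NLRP4 and LRP1B were not called for knockdown in truncation cells, where DNMT1 averaged 129 CPM after knockdown against 381 CPM with scramble. In WT cells, where DNMT1 also fell, NLRP4 was called higher with knockdown (0.55 ± 0.15) and LRP1B was not called (0.29 ± 0.28). What part these enzymes had in the level of either gene was not tested.

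The genes around NLRP4 were examined next. NLRP11, which overlaps its start, stood at 0.595, 0.989, 1.02 and 0.686 CPM in truncation knockdown, at 1.51, 1.16, 1.29 and 1.63 in truncation scramble, at 0.925, 0.629, 0.591 and 0.975 in WT knockdown, and at 1.15, 1.43, 0.971 and 0.643 in WT scramble. The genotypes overlapped under either siRNA. Its log2 fold change of truncation against WT was 0.09 ± 0.27 in knockdown cells (adjusted p 0.822 by edgeR) and 0.40 ± 0.24 in scramble cells (adjusted p 0.192 by edgeR). With knockdown NLRP11 fell by 0.73 ± 0.25 in truncation cells (adjusted p 0.0142 by edgeR), and in WT cells it was -0.42 ± 0.26 (adjusted p 0.186 by edgeR). The strand setting of the counting is not given in the sources used here, so reads from the 223 bp overlap of NLRP4 and NLRP11 cannot be told apart.

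Within 1 Mb of NLRP4 lie 72 other protein-coding genes, of which 38 were tested. In truncation against WT cells 3 were called higher and 12 lower under either siRNA, with log2 fold changes from -1.26 to 0.55 in knockdown cells and from -1.46 to 0.47 in scramble cells. In all tested genes the shares called were 21.9% higher and 23.6% lower in knockdown cells, and 21.6% higher and 22.4% lower in scramble cells. Their medians were -0.12 and -0.11, against -0.0026 and -0.02 over all genes. The 3 higher, FIZ1, ZNF579 and ZSCAN5A, are named because of these values, and the largest was ZNF579 at 0.50 in knockdown cells. Upstream, the nearest genes beyond NLRP11 were too low to test. RFPL4AL1 had 1, 0, 2 and 1 counts in truncation knockdown, truncation scramble, WT knockdown and WT scramble, RFPL4A had 15, 7, 12 and 6, and NLRP9 had 16, 13, 12 and 10. Downstream, NLRP13 at 9.85 kb had 3, 0, 0 and 5 counts in the same groups, NLRP8 at 66.0 kb had 2, 2, 3 and 4, and NLRP5 at 118 kb had 17, 9, 43 and 18.

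**Figure D5:**
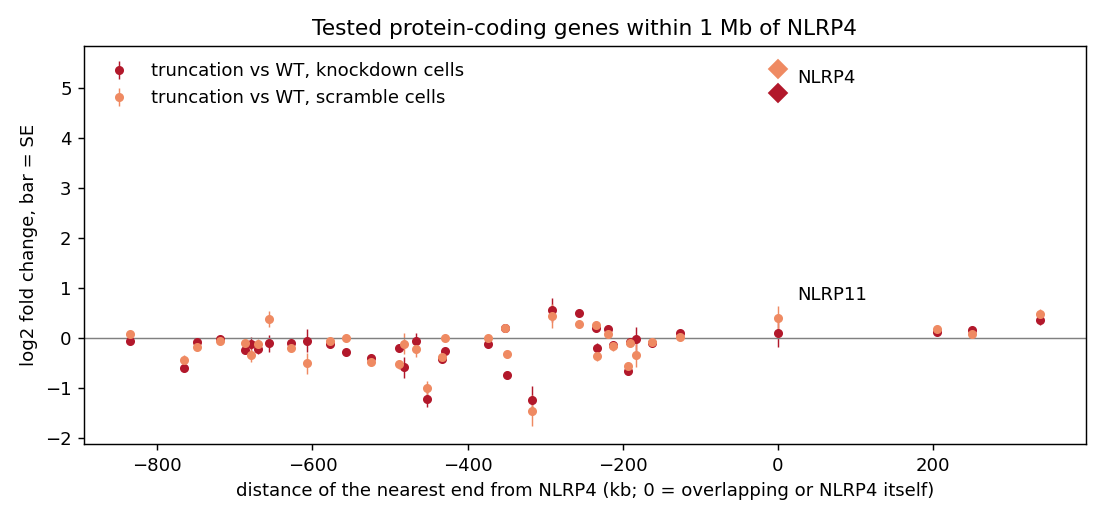
Log2 fold change of truncation against WT (points, with SE bars) for tested protein-coding genes within 1 Mb of NLRP4, by distance in kb of their nearest end, in knockdown and scramble cells; diamonds at 0 are NLRP4. The neighbours lie between -1.46 and 0.55, and NLRP4 at 4.89 and 5.36.

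LRP1B lies in a gene-poor region. Only KYNU at 746 kb and ARHGAP15 at 960 kb are protein-coding genes within 1 Mb, and neither was tested. KYNU had 34, 12, 33 and 23 counts and ARHGAP15 4, 6, 9 and 25 counts in truncation knockdown, truncation scramble, WT knockdown and WT scramble. The 8 annotated genes that overlap LRP1B had at most 4 counts in any group.

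The genes whose levels ran most like those of NLRP4 over the 16 libraries, by Pearson's r on log2(CPM + 0.5), were PSMC4 (0.996), TGIF1 (0.993), MAPRE2 (0.992), SPP1 (0.992) and UBFD1 (0.992). PSMC4 encodes an ATPase subunit of the proteasome, and it averaged 579, 552, 224 and 209.7 CPM in truncation knockdown, truncation scramble, WT knockdown and WT scramble. LRP1B came 25th in that order, with r at 0.988. Closest to LRP1B were HECW1 (0.992), DIP2C (0.992), UBFD1 (0.991), OSBPL10 (0.990) and MSN (0.989), with NLRP4 11th. HECW1, a ubiquitin ligase gene, averaged 29.2, 32.6, 7.19 and 5.59 CPM in the same groups. The libraries fall into 2 genotypes that both genes separate, and the values share libraries and scaling, so these coefficients describe mainly that split and carry no p.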

How the data were processed

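RNA-seq libraries of 16 HCT116 samples were compared. The authors deposited raw counts per Ensembl gene (60668 genes), a filtered version of those counts, and TMM-scaled CPM as a signal table (22916 genes), from which all levels in the text were taken. Per the submitters' processing notes, STAR 2.7.3a, DESeq2, edgeR and limma were used with hg38. The counting program and its annotation and strandedness are not given in the labels or headers. Samples were grouped by library name, genotype and treatment. In 4 libraries, those of truncation knockdown, the title says scramble and was not followed. The titles number biological replicates, but no label names separate cultures, and p-values reflect only how much these libraries vary. Replicate pairs differed beyond sampling noise (chi-square per degree of freedom 2.75 to 20.8).

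Raw counts were filtered with filterByExpr (17104 genes, at least 99.83% of counts), scaled by TMM and fitted with edgeR 4.0.16 in R 4.3.3 (quasi-likelihood test, 1 coefficient per group, 12 residual degrees of freedom, biological coefficient of variation 7.25%). Tests were two-sided with Benjamini-Hochberg adjustment over all tested genes, and calls were made at an adjusted p under 0.05. The script was tested on simulated data with known changes. An interaction of 0.5 on the log2 scale was called, in the right direction, for 50% of the changed genes. A knockdown effect of that size was called for 65.5% in truncation cells and 63.8% in WT cells. Standard errors came from the log2 fold change and its F statistic. Levels per kilobase used exon lengths of GENCODE release 29, which may differ from the authors' annotation. Counting error limits genes with few counts.

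The 2 genes and all lists were chosen with earlier results of these data known. Named genes were the 2 genes, up to 4 called members of a list with the largest changes per comparison (all called members where a count was 5 or fewer), neighbours within 1 Mb (the nearest 3 on each side), the 5 most alike genes, and genes near silent in WT and raised in truncation cells. The chaperone genes LRPAP1 and MESD, BECN1 and LRP1 were named in addition. Some list members that the rule names are not reported here, though they are included in the counts, ranks and medians. Alternatives were upper-quartile scaling, DESeq2 1.42.0, 2 other filters, a replicate block, other ceilings and pseudocounts, and leaving out each library. Replicate numbers are not stated to pair the libraries, and the main fit did not pair them.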

Additional observations from a re-analysis of the deposited data

Results flagged for a closer look

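NLRP4 stood at 2.32 CPM in WT scramble replicate 4, against 1.29 to 1.46 CPM in the other 3 WT scramble libraries. The gap to the nearest of them was 0.838 of the group's whole range, above Dixon's 95% critical value for 4 samples. Both genes were examined in all 4 groups and this was the single value past it, where chance gives about 1 in 20 groups. LRP1B was lowest of its group in the same library, at 0.322 CPM. Summed immune markers stood at 15.7 CPM there, and their part in the NLRP4 value was not tested. Without that library NLRP4 rose by 0.79 with knockdown in WT cells on the log2 scale, and by 0.55 with it.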

How the results depend on the processing

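The knockdown effect on NLRP4 in WT cells was called under every alternative run, with log2 fold changes of 0.46 to 0.79 (adjusted p 4.55e-05 to 0.0224) when 1 library was left out and 0.55 (adjusted p 0.00706) with the replicate block. The interaction for NLRP4 changed its call with DESeq2 (-0.49, adjusted p 0.0352), and its leave-one-out values ran from -0.72 to -0.39 (adjusted p 0.00592 to 0.250), the first without WT scramble replicate 4. The near-zero effect of knockdown on LRP1B in truncation cells changed sign with every gene of at least 1 count (-0.0023) and with the authors' filtered table (-0.0092), and ran from -0.09 to 0.10 with 1 library left out, negative without truncation scramble replicate 4 (-0.093), truncation knockdown replicate 2 (-0.066) and truncation knockdown replicate 4 (-0.039). It was called in none of these fits. The number of genes called for the interaction was 974, 1470 with DESeq2, and 653 to 1661 with 1 library left out, the highest without WT knockdown replicate 2. The truncation effect on NLRP4 in scramble cells ran from 5.27 to 5.60. A log2 fold change of at least 2 in place of 3 left 41 genes near silent in WT and raised in truncation cells, and a ceiling of 0.5 CPM left 7. The cause of these shifts was not tested. The other 309 values from alternatives kept their direction and side of the threshold or moved by less than a set limit. For log2 fold changes between genotypes that limit was set from the standard error of the main estimate, and for numbers of genes it was a factor. The 653 called genes and the 7 genes near silent in WT stayed within that factor.

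Same-numbered libraries deviated together weakly at most, with correlations of -0.0837 to 0.164 and 4 of 24 pairs over 0.1. The replicate block changed no call for either gene, giving -0.48 (adjusted p 0.119 by edgeR) for the NLRP4 interaction. With the block 1150 genes were called for the interaction, against 974 in the main fit. Upper-quartile scaling left the median of all genes within 0.1 of that under TMM, and gave 3084 higher and 4561 lower genes for truncation in scramble cells, against 3692 and 3837, and 5645 and 4247 for knockdown in truncation cells, against 4904 and 4802. LRP1B in WT cells, at 9 to 24 counts per library, limits what can be seen there.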
